A study of Mus musculus with 10 samples.

Results

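The genes described here are the replication-dependent histone genes of the mouse histone clusters. They were chosen as every protein-coding gene whose GENCODE M21 symbol begins with Hist1, Hist2, Hist3 or Hist4, which gave 67 of the 55450 genes in the deposited count table. The rule uses symbols alone, but the family itself was selected on the KO and WT levels of its genes in these same libraries, so those levels are given as a description. Calls from the test across all genes are counted beside the share of all genes called, and since they rest on the values that selected the family, they test nothing about it. RNA came from corneal endothelium, the single cell layer on the inner face of the cornea, peeled from C57BL/6 mice at week 12 of age. Slc4a11-/- mice (KO), which lack both copies of the membrane transporter gene Slc4a11, gave 5 libraries, and Slc4a11+/+ mice (WT) gave 5 libraries. For each library the tissue of 6 eyes from 3 animals was combined, so a replicate is a pool and not a single mouse. Libraries were prepared from polyadenylated RNA with a stranded kit.

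Histones H2A, H2B, H3 and H4 form the core around which DNA is wound, and the linker histone H1 binds the DNA between cores. Cluster genes are transcribed mainly during DNA synthesis, and most of their mRNAs end in a short stem-loop bound by the protein SLBP rather than in a poly(A) tail. Some cluster genes can also give spliced or polyadenylated mRNAs, which have been described in non-dividing and differentiating cells, and the corneal endothelium of adult rodents divides little. A library made from polyadenylated RNA therefore holds chiefly the tailed forms, and it measures the stem-loop forms incompletely.

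The stem-loop sequence was sought in the annotated transcripts because it sets these mRNAs apart from others. The pattern GG, any 2 bases, CTTTT, any base, AG, any 2 bases, CC was searched on the sense strand after the stop codon of each GENCODE M21 transcript, and 44 of the 67 genes held it, 21 to 58 bases past the stop codon. The sites of the most abundant H1, H2A, H2B, H3 and H4 genes with a match follow, with that of Hist1h4h, which had the highest fold change of the tested members. Capitals mark the 16 bases of the stem-loop, and the lower-case bases are its neighbours in the transcript, on GRCm38.
Hist1h1c, chr13:23739512-23739527, plus strand: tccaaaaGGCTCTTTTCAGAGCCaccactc
Hist3h2a, chr11:58955172-58955187, plus strand: caccaaaGGCTCTTTTCAGAGCCacccaca
Hist1h2bg, chr13:23571843-23571858, plus strand: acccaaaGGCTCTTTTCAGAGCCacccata
Hist2h3c1, chr3:96247327-96247342, plus strand: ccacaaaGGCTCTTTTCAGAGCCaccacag
Hist1h4i, chr13:22040966-22040981, minus strand: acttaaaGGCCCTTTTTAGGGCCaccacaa
Hist1h4h, chr13:23531458-23531473, plus strand: aaccaaaGGCCCTTTTCAGGGCCgcccaca
The commonest form, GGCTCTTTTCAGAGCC, stood in 26 genes of the H1, H2A, H2B and H3 types. No H4 gene held it: 7 H4 genes had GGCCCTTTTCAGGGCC, 2 had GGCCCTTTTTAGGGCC and 2 had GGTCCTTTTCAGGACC. The other 7 genes with a match had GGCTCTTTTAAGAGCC (6 genes) or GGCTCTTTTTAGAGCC (1 gene, Hist2h2ac).

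The annotated ends fell into 4 kinds. In 25 genes the longest transcript holding the stem-loop ran at least 50 bases past it, and in 19 it ended within 50 bases of it. Among the 19, Hist1h2bp also has a spliced transcript that runs 150 bases past the stop codon with a poly(A) signal and no match. In 5 genes at least 100 bases followed the stop codon without a stem-loop match, and in 18 the annotation stopped within 100 bases of the stop codon with no match. Hist1h2bc, the most abundant member, was of the third kind: its only annotated transcript is spliced, runs 742 bases past the stop codon and carries a poly(A) signal (AATAAA or ATTAAA). Hist2h2be likewise ran 2192 bases past its stop codon with a poly(A) signal and no match. Hist1h1c ran 840 bases past its stem-loop and Hist3h2a 1643 bases, each with a poly(A) signal. Of the 67 genes, 62 had no intron in any annotated transcript and 5 had a spliced one.

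**Figure D1:**
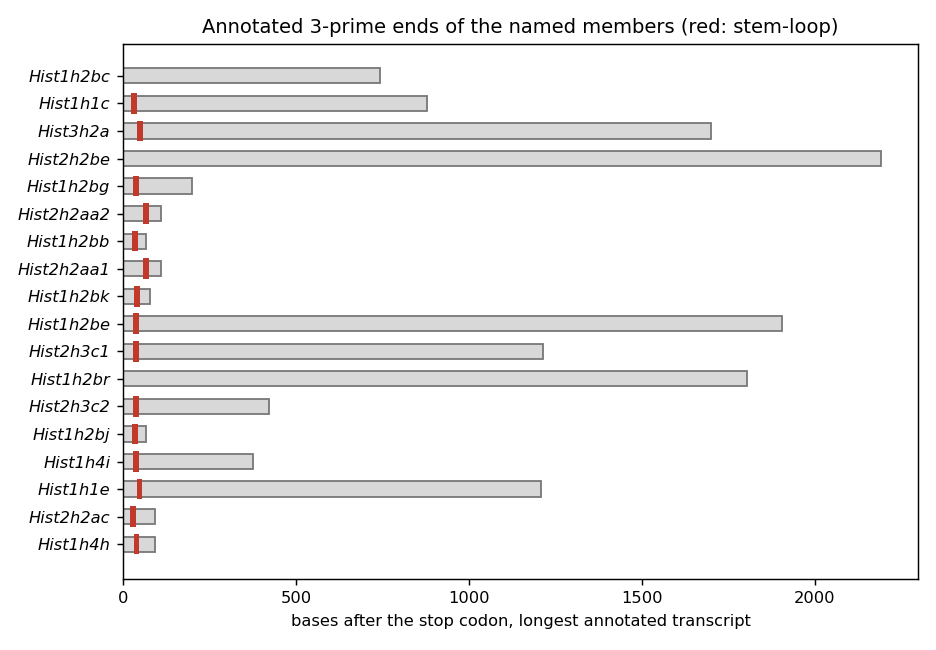
Annotated 3-prime ends of the 18 named members, ordered by mean level from top to bottom. The horizontal axis gives bases after the stop codon in the longest annotated transcript (grey bars), and red blocks mark the stem-loop: the 3 bars without one are Hist1h2bc, Hist2h2be and Hist1h2br, and the longest run, 2192 bases, is that of Hist2h2be.

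Promoters were taken from RefSeq (250 bases before to 50 after each start, GRCm38.p6), and 61 of the 67 genes had an entry. The sequences below are those of the most abundant H1 and H2B genes with an entry, whose levels were higher in KO libraries, and of Hist3h2a, whose level was not. Capitals mark the octamer ATTTGCAT, the box CCAAT and the box TATAAA on either strand, so ATGCAAAT and ATTGG are their reverse complements.
Hist1h1c, chr13:23738557-23738856, plus strand: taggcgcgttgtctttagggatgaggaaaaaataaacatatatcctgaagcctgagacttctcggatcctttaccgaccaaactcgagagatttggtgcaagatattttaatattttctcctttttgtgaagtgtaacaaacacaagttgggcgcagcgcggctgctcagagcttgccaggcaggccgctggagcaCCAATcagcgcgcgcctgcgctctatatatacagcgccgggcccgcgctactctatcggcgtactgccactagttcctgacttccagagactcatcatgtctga
Hist1h2bg, chr13:23571150-23571449, plus strand: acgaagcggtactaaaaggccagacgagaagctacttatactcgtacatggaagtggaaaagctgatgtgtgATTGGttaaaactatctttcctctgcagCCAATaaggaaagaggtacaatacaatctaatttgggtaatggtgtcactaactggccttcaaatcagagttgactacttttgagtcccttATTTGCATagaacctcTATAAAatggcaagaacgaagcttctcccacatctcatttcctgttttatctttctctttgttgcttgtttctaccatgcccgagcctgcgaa
Hist3h2a, chr11:58954435-58954734, plus strand: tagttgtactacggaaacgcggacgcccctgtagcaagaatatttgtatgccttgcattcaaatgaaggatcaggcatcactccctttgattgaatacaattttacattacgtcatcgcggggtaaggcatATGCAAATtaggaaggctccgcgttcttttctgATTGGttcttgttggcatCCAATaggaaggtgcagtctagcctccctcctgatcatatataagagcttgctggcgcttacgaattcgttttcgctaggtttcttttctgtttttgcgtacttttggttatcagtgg
The octamer, known to be bound by the factor Oct-1 (Pou2f1) in H2B promoters, stood in 13 of 61 histone promoters (21.3%) and in 1.7% of all 32851 promoters of the table. Those 13 were 7 of 18 H2A and 6 of 16 H2B promoters. Windows of neighbours on opposite strands can overlap, so the same site can be counted for both genes. This holds for Hist1h2ae and Hist1h2bg, Hist1h2ah and Hist1h2bk, and Hist1h2aa and Hist1h2ba, which all count as having the octamer. CCAAT stood in 52 of 61 (85.2%), against 37.4% of all promoters, and in all 49 of the H1, H2A, H2B and H3 types but only 3 of 12 of H4. TATAAA stood in 34 of 61 (55.7%), against 13.6% of all promoters. A match describes the letters in this window, not a bound site.

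Library totals ranged from 36026193 to 51008996 counts, and the common biological coefficient of variation between pools was 16.3%. The targeted gene Slc4a11 was at 70.08 to 114.1 CPM (counts scaled to library size, with TMM factors) in KO libraries and 3489 to 4357 CPM in WT libraries, with no overlap. The sample holds the defining transcripts of corneal endothelium (Col8a2 averaged 7619 CPM in KO and 7374 CPM in WT libraries, and Col8a1 2065 CPM in KO and 1796 CPM in WT libraries). Of 7 endothelial markers 2 were called lower, Slc4a11 and the lactate transporter gene Slc16a3 (20.7 CPM in KO and 82.0 CPM in WT libraries, log2 fold change -1.98), and the median of the list was -0.23. Slc4a4, a bicarbonate transporter gene, was at 560.5 to 878.7 CPM in KO and 937.7 to 1002 CPM in WT libraries, without overlap, and was not called (log2 fold change -0.31). Summed, the 7 were at 9838 to 12740 CPM in KO and 14760 to 16120 CPM in WT libraries. Slc4a11 itself gave 70.08 to 114.1 CPM of the KO sums and 3489 to 4357 CPM of the WT sums. The gap between the sums therefore holds the loss of the targeted gene and does not measure endothelial content. The sum of 10 epithelial markers, keratin and junction genes among them, was above the WT range in 4 KO libraries, KO 4 by the least. It was 1782, 563.2, 73.94, 233.3 and 3438 CPM in KO 1 to KO 5, against 67.73 to 194.8 CPM in WT libraries. Single markers could differ from the sum. Krt12 in KO 4 (50.49 CPM) lay within its WT range (4.661 to 67.91 CPM), and Krt17 in KO 2 (11.23 CPM) lay below its WT range (12.84 to 16.18 CPM).

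Cluster histone transcripts were rare but counted in every library, with 2738 to 7623 counts over the family. Of the 67 genes, 66 had at least 1 count, the exception being Hist1h3h. The low-count filter of edgeR, filterByExpr, kept 27 for the comparison across all genes and set 40 aside, and 18 of the 27 would have passed on the WT libraries alone. The 9 others (Hist1h1d, Hist1h1e, Hist1h2ac, Hist1h2bl, Hist1h2bm, Hist1h2bp, Hist1h2bq, Hist1h4h and Hist2h2ac) passed only with the help of the KO libraries, where they were higher. In this comparison the tallies of all members, by type, by chromosome and by annotated end are therefore followed by that of the genes passing in WT alone.

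The summed level of all 67 genes was 130.3, 133.1, 165.6, 166.7 and 154.1 CPM in KO 1 to KO 5, against 74.64, 78.03, 71.81, 77.53 and 73.67 CPM in WT 1 to WT 5. Every KO library lay above every WT library. The means were 150.0 ± 17.4 CPM in KO and 75.1 ± 2.62 CPM in WT libraries (SD, n = 5 each), a ratio of 2.00. The KO libraries also differed more among themselves than the WT libraries did, KO 3 and KO 4 being highest. In these bulk samples, fewer cells of a type and less RNA per cell cannot be told apart, and the same holds for more cells and more RNA.

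All 27 tested members had a positive log2 fold change, KO over WT, with a median of 1.10 and a range of 0.02 to 1.82. Over all 17729 tested genes the median was 0.00. At an adjusted p under 0.05 (edgeR quasi-likelihood test, Benjamini-Hochberg over all genes), 23 members were called higher and 0 lower, and 7.59% of all tested genes were called higher and 7.73% lower. In 22 of the 27 every KO library lay above every WT library, a pattern found in 5.88% of all tested genes, and in 0 every KO library lay below, as in 6.16% of all tested genes. Among the 18 that pass the filter on WT libraries alone, 15 were called higher, 15 had no overlap and the median was 1.08. Since these values led to the choice of the family, the counts describe it and support nothing further.

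**Figure D2:**
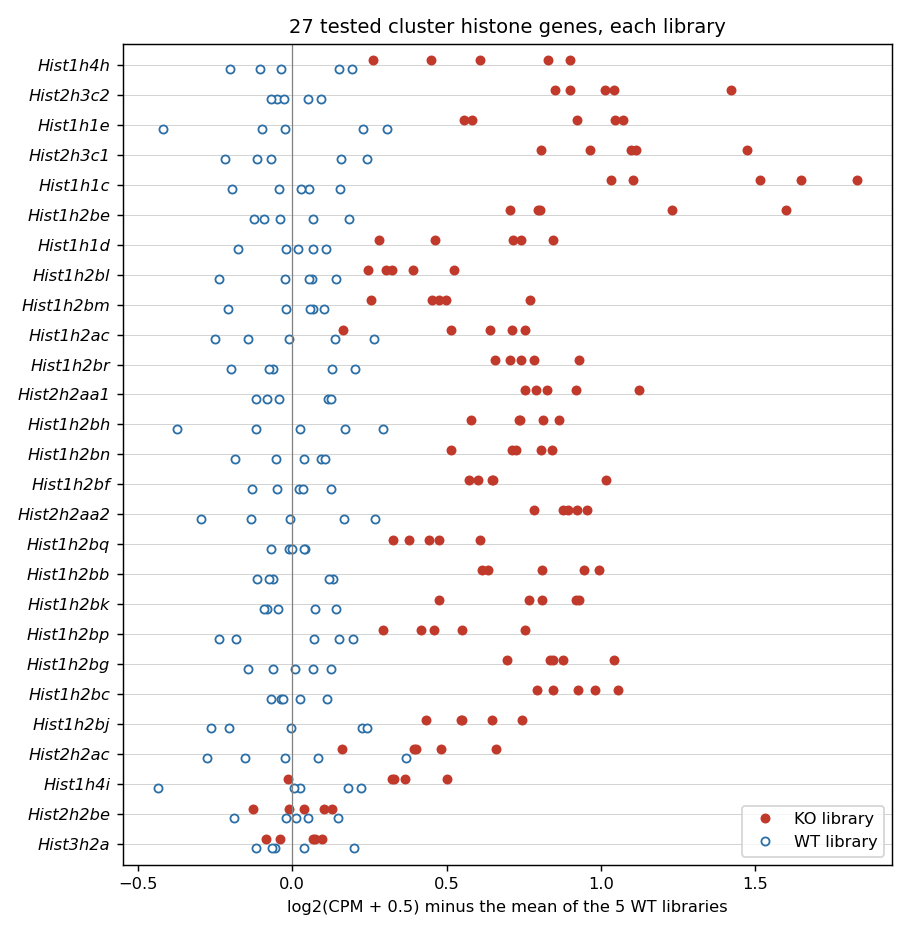
Levels of the 27 tested members in each library, as log2(CPM + 0.5) minus the mean of the 5 WT libraries on the horizontal axis, with filled points for KO and open points for WT libraries. KO and WT points intermingle in Hist3h2a and Hist2h2be at the bottom, while in 22 genes all KO points lie to the right of all WT points.

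By type, the H1 genes were 50.6 ± 11.9 CPM in KO and 18.1 ± 1.5 CPM in WT libraries (ratio 2.79), with 3 of 3 tested genes called higher (1 of 1 passing in WT alone, Hist1h1c). The H2B genes were 73.6 ± 5.21 CPM in KO and 39.6 ± 2.06 CPM in WT libraries (ratio 1.86), with 14 of 15 tested genes called higher (10 of 11 passing in WT alone). The H2A genes were 19.4 ± 0.548 CPM in KO and 14.9 ± 1.12 CPM in WT libraries (ratio 1.30), with 3 of 5 called (2 of 3). H2A thus had the smallest ratio of the 5 types, and Hist3h2a, which differed little between the genotypes, held most of its counts. The H3 genes were 4.15 ± 0.837 CPM in KO and 1.37 ± 0.182 CPM in WT libraries (ratio 3.04), with 2 of 2 called (2 of 2). The H4 genes were 2.29 ± 0.410 CPM in KO and 1.19 ± 0.259 CPM in WT libraries (ratio 1.93), with 1 of 2 called (0 of 1). Every KO library lay above every WT library in the sum of each type. H1 made up 33.7% of the family's CPM in KO and 24.1% in WT libraries, and H2A 12.9% in KO and 19.8% in WT libraries. H2B held 49.1% in KO and 52.7% in WT libraries, so H3 and H4 together were a small remainder of the family's CPM. These shares depend on how multiply mapping reads were treated, which is not known here. Windows (short stretches of transcript sequence) found in no other gene made up a median of 97.6% in H1 genes. The medians were 26.2% in H2A, 48.9% in H2B, 40.2% in H3 and 55.2% in H4 genes. In 35 members of the family such windows made up less than 50%.

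**Figure D3:**
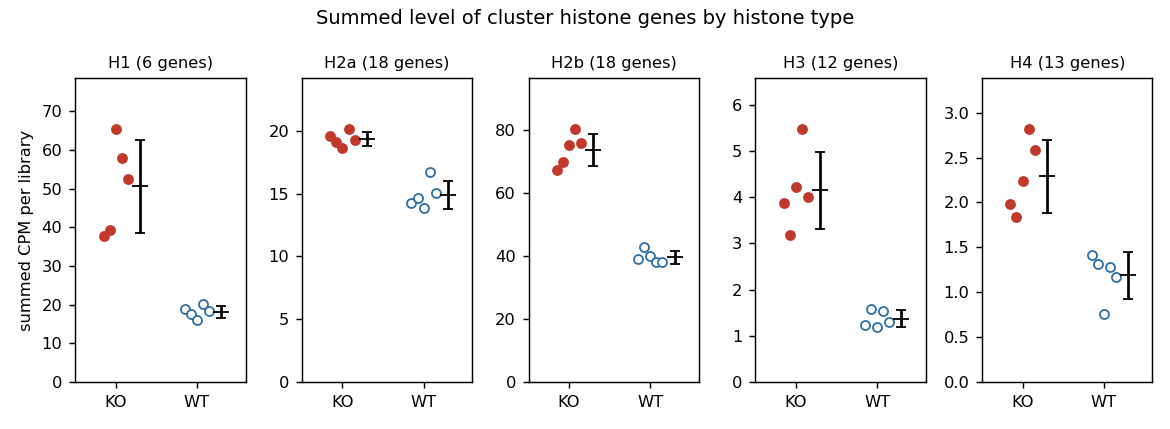
Summed CPM of all members of each histone type in each library (points, KO left of WT), with the mean and SD of 5 libraries beside them and a separate vertical scale, starting at 0, for each type. All KO points lie above all WT points in each panel, with the widest KO spread in H1 (37.74 to 65.4 CPM) and the narrowest step in H2A.

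H1 was carried by Hist1h1c (H1.2), a linker histone gene active in many tissues. It was at 36.22, 38.09, 63.31, 55.67 and 50.73 CPM in KO 1 to KO 5, against 18.13, 16.92, 15.19, 19.48 and 17.80 CPM in WT 1 to WT 5. The groups did not overlap, and KO 3 stood well above KO 1 and KO 2. Its log2 fold change was 1.48 (SE 0.14). Hist1h1e (H1.4) was at 0.715, 0.737, 1.24, 1.21 and 1.07 CPM in KO 1 to KO 5, against 0.273, 0.469, 0.524, 0.314 and 0.118 CPM in WT 1 to WT 5. Again KO 3, KO 4 and KO 5 were the high libraries, none overlapped with WT, and the log2 fold change was 1.54 (SE 0.33). Hist1h1e shares annotated exons on the same strand with Hist1h2be, so reads there could belong to either. The third tested H1 gene, Hist1h1d, had a log2 fold change of 1.39.

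Hist1h2bc, an H2B gene whose annotated mRNA is spliced and polyadenylated, was at 42.70, 44.24, 46.89, 51.34 and 48.69 CPM in KO 1 to KO 5, against 23.80, 26.44, 24.89, 23.25 and 23.92 CPM in WT 1 to WT 5. The libraries of each genotype lay close together and far from the other genotype. Its log2 fold change was 0.94 (SE 0.06), the smallest error of any tested member. Per kilobase of exon (RPKM), Hist1h2bc reached 40.5 RPKM in KO and 21.2 RPKM in WT libraries, the highest level of the family in each genotype. Hist1h1c followed with 31.3 RPKM in KO and 11.2 RPKM in WT libraries. The next level was that of Hist1h2bg in KO libraries (8.77 RPKM, against 4.47 RPKM in WT), while in WT libraries it was that of Hist3h2a (5.28 RPKM in KO and 5.20 RPKM in WT).

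Hist1h2bg was at 4.77, 5.48, 5.35, 6.20 and 5.30 CPM in KO 1 to KO 5, against 3.05, 2.62, 2.78, 2.91 and 2.45 CPM in WT 1 to WT 5, with no overlap and a log2 fold change of 0.97 (SE 0.11). Hist1h2bb, whose annotated transcript stops 23 bases past its stem-loop, was at 2.48, 2.44, 2.87, 3.33 and 3.20 CPM in KO 1 to KO 5, against 1.61, 1.59, 1.27, 1.34 and 1.32 CPM in WT 1 to WT 5. KO 4 and KO 5 were highest, no library overlapped, and the log2 fold change was 1.00 (SE 0.14). Hist1h2bk was at 2.60, 2.51, 2.87, 1.96 and 2.84 CPM in KO 1 to KO 5, against 1.17, 1.45, 1.16, 1.21 and 1.36 CPM in WT 1 to WT 5. Here KO 4 was the lowest KO library, unlike in the genes above, and the log2 fold change was 1.00 (SE 0.14).

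Hist1h2be was at 1.69, 1.83, 2.65, 3.57 and 1.85 CPM in KO 1 to KO 5, against 0.763, 1.03, 0.911, 0.733 and 0.810 CPM in WT 1 to WT 5. KO 3 and KO 4 stood highest, the genotypes did not overlap, and the log2 fold change was 1.44 (SE 0.22), with the shared exons of Hist1h1e within its annotated span. Hist1h2br was at 1.45, 1.39, 1.78, 1.5 and 1.56 CPM in KO 1 to KO 5, against 0.545, 0.648, 0.638, 0.880 and 0.810 CPM in WT 1 to WT 5. It had no overlap and a log2 fold change of 1.12 (SE 0.16). Hist1h2br shares its coding sequence with Hist1h2bq, and 10.7% and 2.0% of their windows were found in no other gene. Reads could therefore not be split between them with certainty. Their sum averaged 2.06 CPM in KO and 0.956 CPM in WT libraries, without overlap, a ratio of 2.16. Hist1h2bj was at 0.954, 1.07, 1.30, 1.07 and 1.18 CPM in KO 1 to KO 5, against 0.572, 0.760, 0.774, 0.398 and 0.434 CPM in WT 1 to WT 5, also without overlap, with a log2 fold change of 0.93 (SE 0.21). When KO 3 and KO 4 alone stood for KO, Hist1h2bj was not called, at a log2 fold change of 1.03 with fewer libraries. The 7 tested H2B genes not given singly were all called higher, where 7.59% of all tested genes were. They include none with a mean above 1.45 CPM in KO libraries. Among them, Hist1h2bl, Hist1h2bm, Hist1h2bp and Hist1h2bq passed the filter only with the help of the KO libraries.

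One H2B gene departed from the others. Hist2h2be, on chromosome 3, was at 4.48, 4.09, 4.97, 4.64 and 4.88 CPM in KO 1 to KO 5, against 4.55, 5.05, 4.69, 3.90 and 4.44 CPM in WT 1 to WT 5. The genotypes were intermingled and the log2 fold change was 0.03 (SE 0.10). The 14 tested H2B genes on chromosome 13 had log2 fold changes from 0.93 to 1.44.

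Hist3h2a, the most abundant H2A gene and the main member on chromosome 11, was at 11.73, 10.81, 10.45, 11.92 and 11.68 CPM in KO 1 to KO 5, against 10.69, 10.21, 10.61, 12.86 and 11.44 CPM in WT 1 to WT 5. WT 4 was the highest library and WT 2 the lowest, so the groups overlapped throughout, and the log2 fold change was 0.02 (SE 0.08). Its annotated exons overlap those of Trim17 on the same strand. Hist2h2aa1 and Hist2h2aa2 encode the same H2A protein from the same coding sequence, and reads could not be split between them with certainty: 3.6% of the 36-base windows of Hist2h2aa1 and 0.0% of those of Hist2h2aa2 were found in no other gene. Their sum was 5.79, 5.86, 6.00, 6.47 and 5.45 CPM in KO 1 to KO 5, against 2.43, 3.29, 2.32, 2.89 and 2.88 CPM in WT 1 to WT 5. No library overlapped, and the ratio of the means was 2.14. The annotated exons of Hist2h2aa1 also overlap those of Gm20634 on the same strand. Both Hist2h2aa1 and Hist2h2aa2 overlap other genes on the opposite strand, so their sum can hold reads of those genes.

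Hist2h2ac, a further H2A gene of chromosome 3, was at 0.405, 0.780, 0.630, 0.564 and 0.568 CPM in KO 1 to KO 5, against 0.545, 0.358, 0.228, 0.168 and 0.296 CPM in WT 1 to WT 5. KO 1 lay below WT 1, and with a log2 fold change of 0.91 (SE 0.30) the gene was not called. The fifth tested H2A gene, Hist1h2ac, was called higher at 1.17, although its lowest KO library lay within the WT range.

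Among H3 genes only the chromosome 3 pair Hist2h3c1 and Hist2h3c2, which share a coding sequence, passed the filter. Hist2h3c1 was at 2.34, 1.79, 2.30, 3.14 and 2.06 CPM in KO 1 to KO 5, against 0.627, 1.05, 0.751, 0.964 and 0.711 CPM in WT 1 to WT 5, a log2 fold change of 1.49 (SE 0.19). Hist2h3c2 was at 1.26, 1.33, 1.48, 2.12 and 1.52 CPM in KO 1 to KO 5, against 0.545, 0.447, 0.433, 0.461 and 0.513 CPM in WT 1 to WT 5, a log2 fold change of 1.68 (SE 0.18). KO 4 was highest in both genes and neither overlapped with WT. Counted together, which does not depend on how reads were split within the pair, they averaged 3.87 CPM in KO and 1.30 CPM in WT libraries, a ratio of 2.97. The annotated exons of Hist2h3c1 also overlap those of Gm20634 on the same strand.

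Hist1h4h had the highest log2 fold change of the tested members, at a low level. It was at 0.358, 0.253, 0.456, 0.671 and 0.616 CPM in KO 1 to KO 5, against 0.218, 0.112, 0.0455, 0.0838 and 0.198 CPM in WT 1 to WT 5. The lowest KO and the highest WT library were close without overlapping, and the log2 fold change of 1.82 carried the largest error of the family (SE 0.40). Hist1h4i, the most abundant H4 gene, was at 0.596, 0.927, 0.891, 0.886 and 1.07 CPM in KO 1 to KO 5, against 0.791, 0.626, 0.319, 0.754 and 0.612 CPM in WT 1 to WT 5. KO 1 lay among the WT libraries, and the gene was not called at a log2 fold change of 0.50 (SE 0.24).

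**Figure D4:**
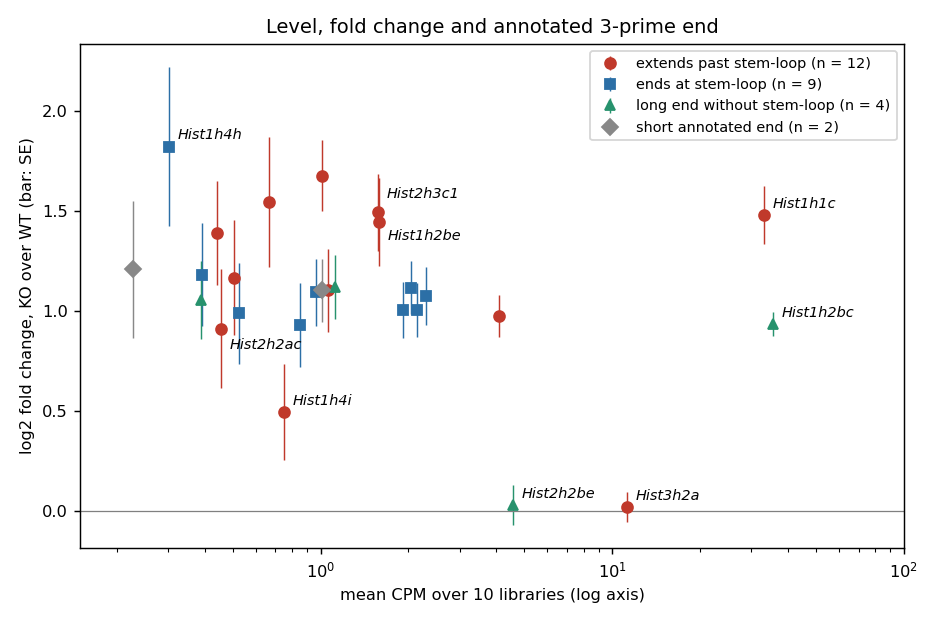
Log2 fold change of KO over WT (vertical axis, bars 1 SE) against mean CPM over all 10 libraries (horizontal axis, log scale) for the 27 tested members, with colour and shape giving the kind of annotated 3-prime end. Hist1h2bc and Hist1h1c stand at the right near 0.94 and 1.48, Hist3h2a and Hist2h2be lie at the zero line, and no kind of end is confined to 1 height.

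The symbols name the clusters, so the chromosome of each gene follows from the rule, while the kind of annotated end was not used. The calls counted by chromosome and by annotated end rest on the values that led to the choice of the family. Over all tested genes, 7.59% were called higher. On chromosome 13, 54 genes summed to 123.1 ± 16.3 CPM in KO and 54.8 ± 1.94 CPM in WT libraries (ratio 2.25), with 19 of 20 tested genes called higher (11 of 12 passing in WT alone), all but Hist1h4i. On chromosome 3, 10 genes summed to 15.4 ± 1.33 CPM in KO and 9.08 ± 0.741 CPM in WT libraries (ratio 1.70), with 4 of 6 called (4 of 5). The 2 genes of chromosome 11 summed to 11.4 ± 0.629 CPM in KO and 11.2 ± 1.03 CPM in WT libraries (ratio 1.02), nearly all of it Hist3h2a. Hist4h4, alone on chromosome 6, had counts in too few libraries to be tested. These differences between chromosomes rest on few genes outside chromosome 13 and were not tested.

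Genes annotated to end at the stem-loop summed to 16.1 ± 0.801 CPM in KO and 7.66 ± 0.659 CPM in WT libraries (ratio 2.1), with 9 of 9 tested called higher (6 of 6 passing in WT alone). Genes that extend past it summed to 77.8 ± 13.1 CPM in KO and 36.5 ± 2.58 CPM in WT libraries (ratio 2.13), with 9 of 12 called (6 of 8). Those with a long end and no stem-loop summed to 53.5 ± 3.79 CPM in KO and 29.97 ± 1.56 CPM in WT libraries (ratio 1.79), with 3 of 4 called (2 of 3). The 18 genes with a short annotated end summed to 2.59 ± 0.216 CPM in KO and 1.06 ± 0.0819 CPM in WT libraries (ratio 2.46), with 2 of 2 called (1 of 1). Both genes with the lowest fold changes, Hist3h2a and Hist2h2be, have long annotated ends with a poly(A) signal. So do Hist1h1c and Hist1h2bc, which were called higher at log2 fold changes of 1.48 and 0.94. Whether the counted reads came from tailed or stem-loop forms is not recorded in a count per gene.

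The 40 untested genes were at or below 0.314 CPM in the mean of either genotype. Together they summed to 2.37 ± 0.302 CPM in KO and 0.943 ± 0.209 CPM in WT libraries. The KO mean was above the WT mean in 35 of them and below it in 4, and Hist1h3h had no count. Leaving out the 4 most abundant genes (Hist1h2bc, Hist1h1c, Hist3h2a and Hist2h2be), the other 63 summed to 38.5 ± 3.23 CPM in KO and 17.5 ± 1.33 CPM in WT libraries, a ratio of 2.20.

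Histone genes outside the clusters make mostly polyadenylated mRNA and were compared in the same fit. Of 11 tested, 5 rose in KO libraries and 0 fell, with a median log2 fold change of 0.31, where 7.59% of all tested genes were called higher. H1fx, a linker histone variant gene, was at 1.29, 1.28, 1.78, 1.74 and 1.78 CPM in KO 1 to KO 5, against 0.709, 0.872, 0.706, 0.566 and 0.968 CPM in WT 1 to WT 5. No library overlapped, and it rose by 1.04 on the log2 scale (SE 0.18, edgeR adjusted p = 0.00312). H2afj, an H2A variant gene, was at 7.30, 6.47, 6.89, 7.06 and 7.15 CPM in KO 1 to KO 5, against 5.18, 5.01, 4.92, 5.45 and 5.16 CPM in WT 1 to WT 5. It rose by 0.44 (SE 0.08, edgeR adjusted p = 0.00281), again with no overlap. H1f0, H2afx and H2afz, which were called at 0.35, 0.59 and 0.31, complete the 5. When KO 3 and KO 4 alone stood for KO, H1fx, H2afj and H1f0 were still called, and the median of the 11 genes was 0.13. H3f3a and H3f3b, which encode the replication-independent H3.3, had log2 fold changes of 0.00 and 0.10 and were not called.

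Of 18 tested genes for histone gene transcription and 3-prime end processing, 1 rose and 0 fell, with a median log2 fold change of -0.07, where 7.59% of all tested genes were called higher. That gene was Eri1, an exonuclease that trims the stem-loop end and acts in histone mRNA decay, at 12.7 ± 0.523 CPM in KO and 10.9 ± 0.722 CPM in WT libraries (SD, n = 5 each; log2 fold change 0.22, edgeR adjusted p = 0.0423). Slbp, which encodes the stem-loop binding protein, was at 16.5 CPM in KO and 18.2 CPM in WT libraries and was not called (log2 fold change -0.14, edgeR adjusted p = 0.134). Of 18 tested histone chaperone genes, 2 rose and 0 fell, beside the same 7.59% of all tested genes called higher. They were Dnajc9, an H3-H4 co-chaperone, with a log2 fold change of 0.26 (edgeR adjusted p = 0.0118), and Hat1, which acetylates new H4, with 0.29 (edgeR adjusted p = 0.0159). When KO 3 and KO 4 alone stood for KO, Eri1, Dnajc9 and Hat1 were no longer called.

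Of 30 genes for DNA replication and cell division, 27 were tested, 9 rose and 0 fell, beside 7.59% of all tested genes called higher. The median log2 fold change of the list was 0.32. Mcm7, a subunit of the replicative helicase, was at 7.88 ± 0.487 CPM in KO and 5.40 ± 0.822 CPM in WT libraries (SD, n = 5 each; log2 fold change 0.55, edgeR adjusted p = 0.00625). Cdc20, an activator of the anaphase-promoting complex, was at 1.12, 1.18, 0.869, 0.725 and 1.78 CPM in KO 1 to KO 5, against 0.518, 0.604, 0.387, 0.440 and 0.474 CPM in WT 1 to WT 5. KO 5 was highest and KO 4 lowest of the KO libraries, and the log2 fold change was 1.23 (edgeR adjusted p = 0.00645). The others that rose were Mcm4, Mcm5, Cdk1, Rrm2, Prim1, Birc5 and E2f1. Mki67, a marker of cycling cells, was at 1.01 CPM in KO and 0.806 CPM in WT libraries and was not called.

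By cluster histone level KO 4 and KO 3 were highest, and by both the epithelial and the replication sum KO 5 was highest. The sum of the 30 replication and division genes was 170.4, 168.4, 159.2, 168.7 and 187.1 CPM in KO 1 to KO 5, against 160.0, 141.2, 143.9, 154.7 and 150.4 CPM in WT 1 to WT 5. KO 3 was the lowest KO library in this sum, below WT 1 but above the other WT libraries. In the epithelial sum KO 3 lay within the WT range. It had 165.6 CPM of cluster histone transcripts, against 71.81 to 78.03 CPM in WT libraries. KO 4 lay above every WT library in both the replication and the epithelial sum. KO 3 and KO 4 had the lowest epithelial sums of the KO libraries and also the highest cluster histone levels. A fit with these libraries alone as KO therefore has high cluster values by choice. In it, 18 of 28 tested cluster genes were called higher, beside 527 of all tested genes (share not computed). The added cluster gene, Hist2h2ab, was not called. The log2 ratio of the summed level was 1.15. In that fit, which has fewer libraries, 0 of the 27 replication and division genes were called by edgeR (6 higher and 0 lower at an unadjusted p under 0.05). Their median log2 fold change was 0.16. With the epithelial marker level as a covariate, 18 of 27 cluster genes were called higher, beside 477 of all 17729 tested genes. Of the 27 replication and division genes 0 were called (6 higher and 1 lower at an unadjusted p under 0.05), with a median log2 fold change of 0.10. The genes called in each of these fits include Hist1h1d, Hist1h1e, Hist1h2bq and Hist1h4h, which do not pass the filter in WT libraries alone. The part that cell composition or cell division had in the members' values was not tested.

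**Figure D5:**
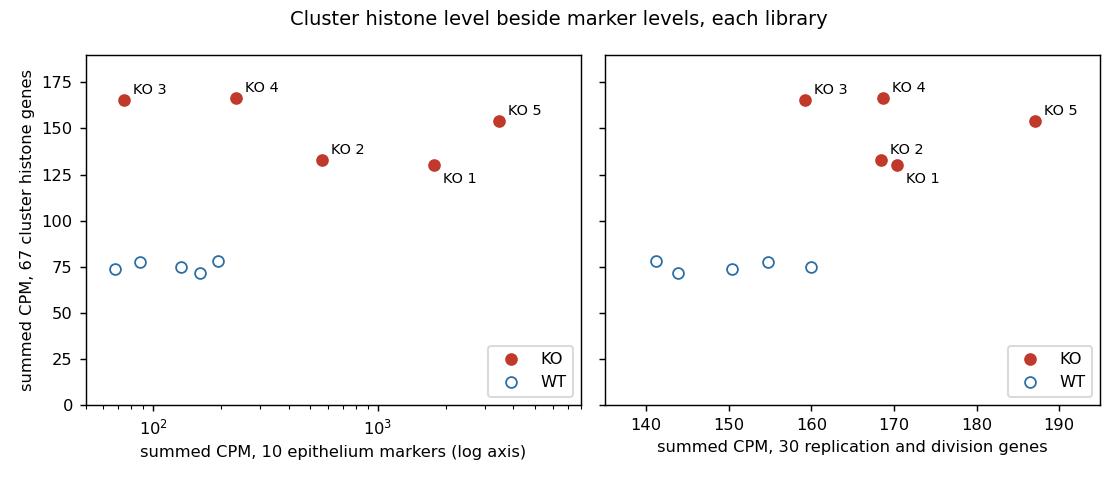
Summed CPM of the 67 cluster histone genes in each library (vertical axis) against the summed CPM of 10 epithelial markers (left, log axis) and of 30 replication and division genes (right), with filled points for KO and open points for WT libraries. KO 3 lies within the WT range on both horizontal axes, at 73.94 and 159.2 CPM, and at 165.6 CPM on the vertical axis, well above all WT libraries. KO 4 lies to the right of all WT libraries in both panels, at 233.3 and 168.7 CPM.

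Markers of other cells that a peeling can carry moved as follows, where 7.59% of all tested genes were called higher and 7.73% lower. Of 10 epithelial markers 7 rose. Of the Schwann cell markers, the myelin gene Mbp rose, at 49.2 to 60.5 CPM in KO and 41.7 to 45.4 CPM in WT libraries (log2 fold change 0.33, edgeR adjusted p = 0.00733). Sox10 was at 1.96 to 3.73 CPM in KO and 1.53 to 2.89 CPM in WT libraries and was not called. None of 6 leukocyte markers was called, with sums of 240.6 to 385.7 CPM in KO and 196.1 to 302.2 CPM in WT libraries. The 7 keratocyte markers summed to 49630 to 65700 CPM in KO and 48660 to 73900 CPM in WT libraries, with 2 called lower. Of 4 blood vessel markers 1 rose and 1 fell, with sums of 79.97 to 102.2 CPM in KO and 100.8 to 151.3 CPM in WT libraries. Most of that sum was Kdr, which fell (84.2 CPM in KO and 120.8 CPM in WT libraries, log2 fold change -0.52). The others went the opposite way: Tie1 rose (0.763 CPM in KO and 0.122 CPM in WT libraries, 2.60), and Pecam1 and Cdh5 were at 0.95 and 0.89, not called. Pigment cell markers (3 of 6 tested, not called) summed to 4.268 to 16.14 CPM in KO and 2.861 to 6.873 CPM in WT libraries, and lens markers (2 of 4 tested, 1 rose, Lim2 at 0) to 7.844 to 11.23 CPM in KO and 5.708 to 7.415 CPM in WT libraries. The part of these cells in the members' values was not tested.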

How the data were processed

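The authors deposited raw counts for each gene and library, made with Trim Galore 0.6.4, cutadapt 2.4, HISAT2 2.1.0 and featureCounts (Subread 1.6.4) on GRCm38.p6, per the submitters' processing notes. Neither the strand setting nor the treatment of multiply mapping reads is given in the sources used here. All 55450 gene identifiers matched GENCODE M21. Samples were grouped by genotype label. edgeR 4.0.16 in R 4.3.3 was run on all genes (filterByExpr, minimum count 10, minimum total 15; TMM; quasi-likelihood F test, no covariates; tested on simulated data). The members and lists were chosen with earlier results of these data known. The named genes were Slc4a11, the 12 most abundant members, the most abundant of each type, the 6 highest and 6 lowest fold changes among tested members, and the called genes with smallest p in each related list (up to 2). Other list genes were named after their values were seen. Uniqueness is the share of 36-base transcript windows found in no other annotated gene, genes overlapping at the same place aside. No pair of replicates was a repeat of 1 library, since chi-square over its degrees of freedom was 14.4 to 86.3. Alternatives included DESeq2 1.42.0, limma-voom (limma 3.58.1), other scalings and filters, a replicate block, an epithelial covariate and each library left out. Reads carry no molecular identifiers. Some genes of the marker lists, those for Schwann cells and corneal endothelium included, were analysed but are not reported here.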

Additional observations from a re-analysis of the deposited data

How the results depend on the processing

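The number of members called higher was 23 of 27 in the fit as reported and 14 of 16 with at least 1 CPM in 5 libraries. The 5 KO libraries alone can meet that filter, as they did for Hist2h3c2, so it does not set aside members that pass only where they are high. The number was 15 of 18 for members that pass the filter on WT libraries alone (chosen after seeing the data), and 21 (without WT 5) to 24 (without WT 1) with single libraries left out. Their median log2 fold change was 1.03 to 1.14 with single libraries left out, and 0 members were called lower in any of those fits. The log2 ratio of the summed level was 1.00, with 0.96 to 1.05 when single libraries were left out. It was 1.15 when KO 3 and KO 4 alone stood for KO, and 1.14 without the 4 most abundant members (chosen after seeing the data). DESeq2 and limma-voom each called 24 members, the added one being Hist2h2ac. Both the epithelial covariate and the KO 3 and KO 4 fit lost Hist1h2bl, Hist1h2bm, Hist1h2bp, Hist1h2bj and Hist1h2ac. Their log2 fold changes in the KO 3 and KO 4 fit, which has fewer libraries, were 1.38, 1.14, 0.73, 1.03 and 0.77, against 1.21, 1.18, 0.99, 0.93 and 1.17 with all libraries. Hist3h2a, at 0.02, turned to -0.0093 with the epithelial covariate and ranged from -0.0122 to 0.0779 with single libraries left out. Hist2h2be, at 0.03, ranged from -0.0196 to 0.0717 with single libraries left out. Over all genes, 1346 were called higher, against 750 with the replicate block, 477 with the epithelial covariate, 527 with KO 3 and KO 4 alone and 836 to 1532 with single libraries left out. Lower calls were 1370, against 571, 578 (covariate; KO 3 and KO 4) and 965 to 1666 with single libraries left out; the cause was not tested. Same-numbered libraries shared only a number: their deviations correlated at -0.422 to 0.093, no KO library correlated best with its own number, and the block called 21 members. Scaling by total counts moved the median of all genes to 0.03. At 2738 to 7623 family counts per library, 40 members had too few counts to be compared singly.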
